A study of Mus musculus with 6 samples.

Results

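The AP-1 and ATF3 family factors described here are 10 genes for basic leucine zipper transcription factors, chosen by name: Fos, Fosb, Fosl1 and Fosl2 of the FOS subfamily, Jun, Junb and Jund of the JUN subfamily, Atf3 and Jdp2, which form a closely related pair, and Batf. Each of the 10 symbols matched 1 of the 23282 gene entries in the deposited count tables. They were measured in RAW 264.7 cells, a mouse macrophage line that can be driven to become osteoclasts, the multinucleated cells that resorb bone. All samples were labelled day 5, 3 after a treatment labelled CPN and 3 labelled control, in a series whose title names a chaperonin of 60 kDa. The labels give neither the origin, dose nor timing of the chaperonin, nor what was given to the control cells, and do not state that the samples were separate cultures, so a p-value reflects how these samples vary among themselves, and that variation may be technical. All samples come from 1 established line, and the libraries were made with QuantSeq, which sequences the 3′ ends of transcripts.

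AP-1 is a dimer. FOS proteins cannot pair with one another and bind DNA with a JUN partner, while JUN proteins can also pair among themselves. ATF3, JDP2 and BATF join the same network as partners of JUN proteins and often act as repressors. In osteoclast precursors the cytokine RANKL induces c-Fos, which together with NFATc1 switches on the osteoclast program, and mice without c-Fos form no osteoclasts. In macrophages, Toll-like receptor ligands and cell stress induce ATF3, which restrains a set of inflammatory genes.

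At day 5 the family was split. Atf3 and Fosl1 were higher in CPN cells, by 13.1-fold and 2.95-fold, while Fosl2 and Fos were lower, by 3.05-fold and 2.35-fold (n = 3 per group; quasi-likelihood test of edgeR, Benjamini-Hochberg adjusted p under 0.05). Reads at Fosl1 cannot be told apart from those of a gene on the opposite strand. Jun, Junb, Jund and Jdp2 did not pass. Batf and Fosb had too few counts to be tested, although Batf was counted in every CPN library and in no control library. Of 11092 genes tested, 7.62% were called higher and 6.39% lower, which gives the background for the 2 higher and 2 lower of the 8 tested members. Scaling by library totals alone made 43.0% of all calls higher, against 54.4% as reported, and put the median change over all tested genes at -0.13, against -0.01, on the log2 scale. The 3 CPN values were all above the 3 control values for Atf3, Fosl1 and Jun, a pattern found in 16.9% of all tested genes, and all below for Fos and Fosl2, found in 15.7%. Together the groups were apart for 5 of the 8 tested members and for 32.6% of tested genes. Because RNA came from whole cultures, fewer cells of a type and less RNA per cell cannot be told apart.

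Library totals lay between 7957228 and 9713938 counts. Levels below are CPM, the count of a gene relative to the TMM-scaled total of its library, on which 1 count is worth between 0.0981 and 0.131 CPM. Genes that averaged 6 to 12 counts were at 0 in between 14.0% and 41.2% of cases, depending on the library, so a 0 for a low gene carries more than counting error. The labelled macrophage markers were present, summing to between 2171 and 2800 CPM in CPN libraries and between 1871 and 2368 CPM in control libraries, with Adgre1 and Itgam of the 6 higher. All 5 tested osteoclast markers were lower, and the list of 6 summed to between 731 and 1184 CPM in CPN libraries against 3142 to 3435 CPM in control libraries. Calcr, the calcitonin receptor gene of mature osteoclasts, had 0 counts in CPN libraries and 3 in control libraries. Of 6 granulocyte markers, S100a8 alone was tested and was higher, and Elane, Ngp and Camp were at 0 in every library. S100a9 had 1 count in CPN libraries and Mpo 6, with 0 for both in control libraries. The list summed to between 18.0 and 34.6 CPM in CPN libraries against 0 to 0.117 CPM in control libraries, nearly all of it S100a8. Of 6 stromal markers, Dcn alone was tested and was higher. The list summed to between 12.2 and 20.4 CPM in CPN libraries against 0 to 6.23 CPM in control libraries. Dcn had 251 counts in CPN libraries and Lum 74, with 0 for both in control libraries. The other markers did not follow: Col1a1 had 28 counts in CPN libraries against 37, Col3a1 13 against 13, and Col1a2 and Pdgfra 0 against 2 each. The part of these marker genes in the results below was not tested. S100a8 and Dcn had enough counts to be tested through the CPN libraries alone, so their tests could not have found them lower. Markers of T and B cells summed to less than 1 CPM in every library.

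The upstream sequences of 4 members are shown because they cover the outcomes described: Atf3, which rose, Fos, which fell, Jun, which did not pass, and Batf, which was counted in CPN libraries and in no control library. RefSeq promoter entries (GRCm38.p6, the assembly also called mm10) matched 9 of the 10 members; Fosl1 had none. The RefSeq start of Atf3 used here lies inside its longer annotated gene body. The stretches of 120 bases run 5′ to 3′ on the gene's strand and end 1 base before the annotated start of transcription, except that of Batf, which ends 52 bases before its RefSeq start, where the GENCODE gene begins. They lie at chr1:191183334-191183453 on the minus strand for Atf3, chr12:85473770-85473889 on the plus strand for Fos, chr4:95052223-95052342 on the minus strand for Jun and chr12:85686549-85686668 on the plus strand for Batf. Capitals mark matches to TGACGT, the core of the cyclic AMP response element that ATF and CREB proteins bind, TGACATCA, a variant of it in the Jun promoter, or TTGCATCA, a composite site of C/EBP and ATF proteins. In Atf3 the core stands as ACGTCA, its reading on the other strand.
Atf3: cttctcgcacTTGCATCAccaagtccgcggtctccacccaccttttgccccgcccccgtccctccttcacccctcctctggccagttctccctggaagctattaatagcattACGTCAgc
Fos: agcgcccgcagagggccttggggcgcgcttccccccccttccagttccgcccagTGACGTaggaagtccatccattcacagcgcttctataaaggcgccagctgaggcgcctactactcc
Jun: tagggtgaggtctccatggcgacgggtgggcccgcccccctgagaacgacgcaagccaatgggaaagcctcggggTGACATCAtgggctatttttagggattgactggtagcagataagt
Batf: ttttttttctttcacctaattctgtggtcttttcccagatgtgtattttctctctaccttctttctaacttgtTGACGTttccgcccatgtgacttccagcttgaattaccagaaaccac

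These letters, searched on both strands over the 250 bases before each start, were chosen with the sequences in view. The core TGACGT was found for 4 of the 9 members searched (Atf3, Batf, Fos and Jdp2) and in 6.47% of all 32851 promoter entries. The composite TTGCATCA was found for Atf3, from base -110, and for Jdp2, and in 0.79% of all entries. TGACATCA was found for Jun, from base -45, and in 2.93% of all entries. Neither the classical AP-1 site TGACTCA nor the full element TGACGTCA, which contains the core, was found for any of the 9 members. They were present in 4.46% and 1.55% of all entries. The 9 members had 11 entries, while the shares are per entry. All 250 bases searched for Fosl2 lay in annotated exons, as did those of 1 entry of Jdp2. The Atf3 and Fos promoters both hold the core, and the genes moved in opposite directions.

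**Figure D1:**
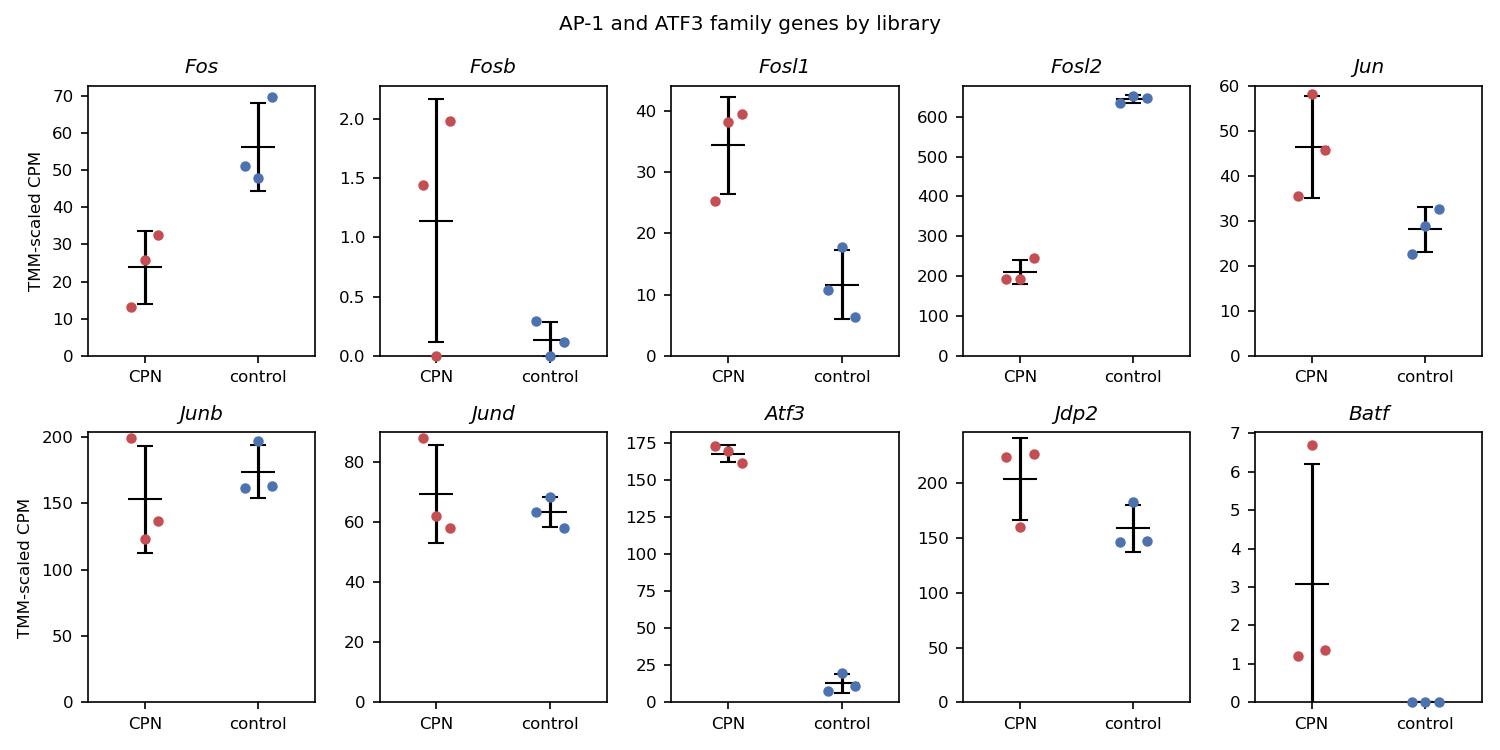
TMM-scaled CPM (vertical axes, each starting at 0 and with its own range) of the 10 family genes in the 3 CPN and 3 control libraries. Points are libraries, horizontal bars group means and error bars SD over 3 libraries, with those that would pass below 0 ending there; Atf3, Fosl1, Jun and Batf lie higher in every CPN library than in any control library, and Fos and Fosl2 lower.

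Among the FOS subfamily, Fosl2 encodes Fra-2, a FOS protein that in mice limits the size of osteoclasts (chromosome 5, 32135801 to 32157842, plus strand). It had 194, 194 and 245 CPM in CPN libraries, against 634, 651 and 647 CPM in control libraries. The 3 control values lay within a narrow band, and every CPN value was below all of them. The mean was 211 ± 29.5 CPM in CPN cells and 644 ± 9.19 CPM in control cells (SD, n = 3 each), a log2 fold change of -1.61 ± 0.16 (SE) and an adjusted p of 3.91e-05 by edgeR. With any library left out, its log2 fold change stayed between -1.73 and -1.54 and it passed each time (edgeR adjusted p up to 0.00115).

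Fos, the gene for c-Fos (chromosome 12, 85473890 to 85477273, plus strand), had 13.2, 25.9 and 32.5 CPM in CPN libraries, against 51.0, 47.9 and 69.8 CPM in control libraries. The groups did not overlap, and CPN 1 was the lowest of all. Its log2 fold change was -1.24 ± 0.32 (SE, edgeR adjusted p = 0.0208). The call ended without CPN 1 (log2 fold change -0.94, edgeR adjusted p = 0.0638), without CPN 2 (-1.29, 0.0718) or without control 3 (-1.05, 0.113), so that the direction stayed and, without CPN 2, the size too. With the 95% interval running from -1.93 to -0.54, the change of Fos is known far less closely than that of Fosl2, whose interval ran from -1.96 to -1.26.

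Fosl1 encodes Fra-1, a FOS protein whose gene is itself a target of c-Fos in osteoclast precursors (chromosome 19, 5447547 to 5455946, plus strand). It had 25.3, 38.2 and 39.6 CPM in CPN libraries, against 10.8, 17.7 and 6.43 CPM in control libraries, and moved opposite to Fos. The log2 fold change was 1.56 ± 0.39 (SE, edgeR adjusted p = 0.0164). The call ended without CPN 2, CPN 3, control 1 or control 3 (edgeR adjusted p between 0.0524 and 0.0744), with log2 fold changes of 1.49, 1.45, 1.51 and 1.27 in that order. Without control 2 the log2 fold change was 2.01. The gene Ccdc85b, on the minus strand at 5453180 to 5457894, covers the 3′ end of Fosl1 and shares 1163 of its 2033 exonic bases. The annotated end of Ccdc85b lies inside the body of Fosl1, though not in an exon. QuantSeq reads come from such ends.

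Ccdc85b had 282, 428 and 398 counts in CPN libraries against 130, 228 and 91 in control libraries, while Fosl1 had 211, 292 and 319 counts against 110, 148 and 55. Both genes had more counts in every CPN library than in any control library, with Fosl1 at between 60.4% and 84.6% of Ccdc85b in every library. Ccdc85b had a log2 fold change of 1.46 ± 0.37 (SE) and an adjusted p of 0.0176 by edgeR. The use of strand in counting is not given in the sources used here, so the rise read at Fosl1 cannot be told apart from one of its antisense partner.

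**Figure D2:**
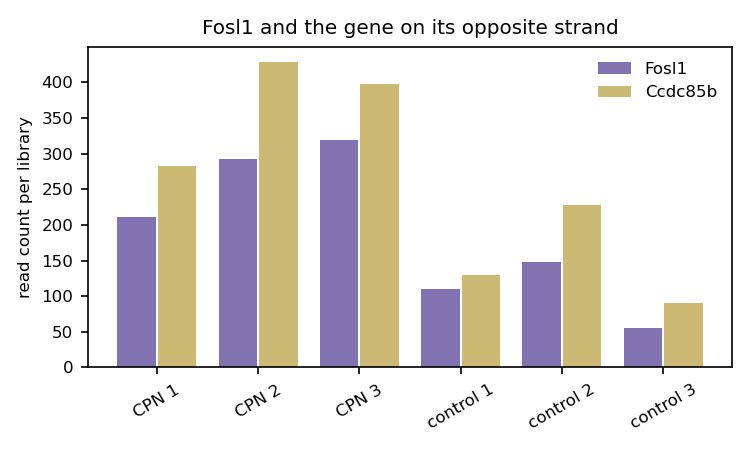
Read counts (vertical axis, from 0) of Fosl1 and of Ccdc85b, the gene on the opposite strand over its 3′ end, in each CPN and control library. Fosl1 stands at between 60.4% and 84.6% of Ccdc85b throughout, and both are highest in the CPN libraries.

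Fosb, whose product resembles c-Fos, was close to the limit of counting, with 12, 0 and 16 counts in CPN libraries against 3, 0 and 1 in control libraries. CPN 2 and control 2 had none, and the groups overlapped. The 28 counts against 4 correspond to a 7.89-fold higher level once library sizes are taken into account (exact 95% interval 2.76 to 31.0, counting error only). Without a filter on low counts Fosb could be tested and did not pass (edgeR adjusted p = 0.496). Summed over the 4 FOS genes, the level was 234, 258 and 319 CPM in CPN libraries against 696, 717 and 724 CPM in control libraries, a sum made up mostly of Fosl2 counts and given as a description.

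In the JUN subfamily none of the 3 genes passed. Jun, the gene for c-Jun, the partner with which c-Fos forms classical AP-1 (chromosome 4, 95049034 to 95052222, minus strand), had 35.6, 58.3 and 45.8 CPM in CPN libraries against 22.8, 29.0 and 32.7 CPM in control libraries. Every CPN value was above every control value, but the nearest values, in CPN 1 and control 3, differed little. Its log2 fold change was 0.73 ± 0.27 (SE, 95% interval from 0.15 to 1.30), which gave an unadjusted p of 0.0175 and an edgeR adjusted p of 0.0943. It also missed the threshold in each fit with 1 library left out.

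Junb (chromosome 8, 84974484 to 84978718, minus strand), a JUN protein with weaker activity than c-Jun on many AP-1 sites, had 199, 123 and 136 CPM in CPN libraries against 162, 197 and 163 CPM in control libraries. The groups overlapped, with the highest value in CPN 1. The log2 fold change of -0.18 had a 95% interval from -0.63 to 0.26 (edgeR adjusted p = 0.638). The 3′ end of Junb lies in an exon of the peroxiredoxin gene Prdx2 on the other strand, with 173 of 2301 exonic bases shared. Prdx2 was lower in CPN cells (log2 fold change -0.76 ± 0.20 SE, edgeR adjusted p = 0.0233). With strand use not given, reads over the shared bases cannot be told apart between these genes. Exons of Jun, Jund and Jdp2 also overlap genes on the opposite strand (Junos, Gm11175 and Gm47863), which have no entry in the counts.

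Jund, the JUN gene known for steady expression in many cell types (chromosome 8, 70698949 to 70700616, plus strand), had 88.1, 62.0 and 58.2 CPM in CPN libraries against 63.4, 68.4 and 58.2 CPM in control libraries. CPN 1 stood above the other 5 libraries. Its log2 fold change of 0.13 had a 95% interval from -0.35 to 0.61 (edgeR adjusted p = 0.773) and was -0.08 without CPN 1, so no direction is given. Summed over the 3 JUN genes, the level was 323, 244 and 240 CPM in CPN libraries and 248, 294 and 254 CPM in control libraries, and the groups overlapped.

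**Figure D3:**
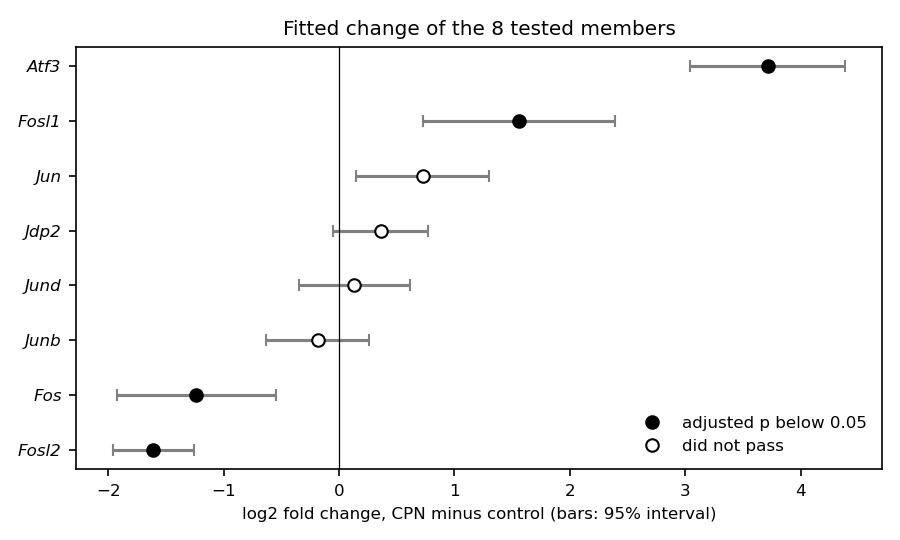
Log2 fold change, CPN minus control (horizontal axis), of the 8 members tested by edgeR's quasi-likelihood test, with 95% intervals as bars; filled points passed an adjusted p of 0.05 and open points did not. Atf3 and Fosl1 lie to the right and Fos and Fosl2 to the left, and the intervals of Jdp2, Jund and Junb cross 0.

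Atf3 encodes a stress-induced factor that represses inflammatory genes in macrophages (chromosome 1, 191170296 to 191218039, minus strand). It had 173, 170 and 161 CPM in CPN libraries, against 7.55, 19.8 and 11.2 CPM in control libraries. The CPN values lay close together, far above the control values, of which control 2 was the highest. The mean was 168 ± 5.86 CPM in CPN cells and 12.8 ± 6.27 CPM in control cells (SD, n = 3 each), with a log2 fold change of 3.71 ± 0.31 (SE) and an adjusted p of 1.15e-05 by edgeR. Ordered by log2 fold change, Atf3 was 141st from the top of the 11092 tested genes. It passed in every fit with a library left out, with a log2 fold change between 3.44 and 4.18, the highest without control 2.

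Jdp2, the nearest relative of Atf3 and a factor that in mice promotes osteoclast formation (chromosome 12, 85599027 to 85639878, plus strand), had 224, 160 and 227 CPM in CPN libraries against 146, 183 and 147 CPM in control libraries. The groups overlapped through CPN 2 and control 2. Its log2 fold change of 0.36 had a 95% interval from -0.05 to 0.77 (edgeR adjusted p = 0.261), which does not reach the change of Atf3. Within a library, the count of Atf3 was 0.772, 1.06 and 0.713 times that of Jdp2 in CPN libraries, against 0.0517, 0.108 and 0.0764 times in control libraries, a ratio that does not depend on library scaling. The groups were apart, with a difference of 3.47 on the log2 scale.

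The ratio of Atf3 to Jdp2 was 1 of 3 compared between the groups by two-sided exact permutation tests, whose smallest possible p with 3 against 3 is 0.1. It gave that value (0.15 adjusted over the 3 ratios). The ratio of Junb to Jund counts was 2.26, 1.99 and 2.34 in CPN libraries against 2.55, 2.88 and 2.80 in control libraries, with no overlap, a difference of -0.32 on the log2 scale and the same exact p of 0.1 (0.15 adjusted). The ratio of Fosl2 to Fos counts was 14.7, 7.47 and 7.53 in CPN libraries against 12.4, 13.6 and 9.28 in control libraries, and these overlapped (exact p = 0.4).

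Batf, whose product pairs with JUN proteins and works with IRF factors in lymphocytes and dendritic cells (chromosome 12, 85686669 to 85709087, plus strand), had 10, 51 and 11 counts in CPN libraries and 0 in all 3 control libraries. CPN 2 held most of the 72 counts. Against a floor of 3 counts per control library, the mean CPN level of Batf was 9.21-fold higher, and 3.83-fold higher without CPN 2. Because a 0 for a low gene carries more than counting error, these values are not lower limits. It did not reach the count filter of the main test. With no filter it passed (edgeR adjusted p = 0.0153), as it did without control 2 (0.0339), but not without CPN 1 (0.0571), CPN 2 (0.16), control 1 (0.0773) or control 3 (0.0875). Batf entered all of these fits through its CPN counts alone, so its test could not have found it lower.

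Fos, Jdp2 and Batf are neighbours: they lie in this order on the same strand within 235 kb of chromosome 12, with no other entry of the count tables wholly inside that span. Across this short stretch Fos fell, Jdp2 did not pass and Batf was counted in CPN libraries alone. The other 7 members lie apart from this group, Junb and Jund both on chromosome 8.

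**Figure D4:**
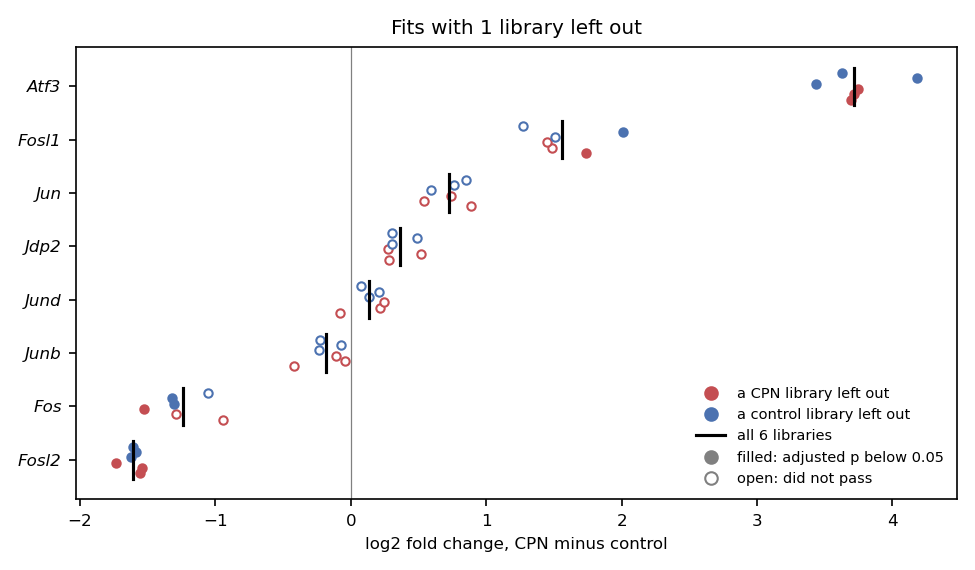
Log2 fold change, CPN minus control (horizontal axis), of the 8 tested members in fits with 1 CPN or 1 control library left out; black lines mark the fit to all 6 libraries, and filled points passed an adjusted p of 0.05 in edgeR. Atf3 and Fosl2 stay filled in all 6 fits, while Fos has 3 open points and Fosl1 has 4.

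Among 13 bZIP partners of the family, 4 of 11 tested genes were higher and none lower. Over all tested genes the shares were 7.62% higher and 6.39% lower. The median log2 fold change was 1.08, beside -0.01 over all tested genes. Cebpb, a C/EBP factor induced in inflamed macrophages, had 99.8, 146 and 106 CPM in CPN libraries against 40.0, 52.4 and 44.4 CPM in control libraries (log2 fold change 1.36 ± 0.22 SE, edgeR adjusted p = 0.00118). Ddit3, encoding CHOP, a dimer partner of ATF3, was higher (log2 fold change 2.46 ± 0.55 SE, edgeR adjusted p = 0.00906). The log2 fold change of Ddit3 was 3.86 without control 2, and its call ended when control 3 and CPN 1 were both left out (2.07, edgeR adjusted p = 0.136). The other higher genes were Atf4 and Maf, and Maf had 114 counts in CPN libraries against 6 in control libraries. Maf reached the count filter through the CPN libraries alone, so its test could not have found it lower. The number of higher partners was 2 without CPN 1, CPN 2, control 1 or control 3, and 3 without CPN 3. It was 6 without control 2 or with no filter, 5 by limma-voom, and 3 with a stricter filter or the replicate number as a block. Without both control 3 and CPN 1 it was 1. Over all genes, between 273 (without control 3 and CPN 1) and 1131 (without control 2) were higher in the alternative fits. Batf2 and Batf3, relatives of Batf, had 2 and 0 counts in CPN libraries and 39 and 1 in control libraries and were not tested.

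Atf3 is also a target of the integrated stress response, in which ATF4 drives stress genes. Of its 9 genes tested here, 4 were higher and none lower, beside 7.62% and 6.39% of all tested genes. The median log2 fold change was 2.01, the value of Sesn2, which did not pass (edgeR adjusted p = 0.183). The control counts of Sesn2 (7, 27 and 7), Gdf15 (0, 71 and 15) and Trib3 (18, 1049 and 9) alone did not reach the count filter. These genes were tested only because of their CPN counts, and none of them passed. Gadd45a, a growth arrest gene, had 835 counts in CPN libraries against 8 in control libraries (log2 fold change 6.79 ± 0.71 SE, edgeR adjusted p = 4.82e-05). Control 3 held 7 of those 8, and the fitted log2 fold change of Gadd45a was 8.98 without it and 6.16 without control 1. Gadd45a reached the count filter through the CPN libraries alone, so its test could not have found it lower. Ppp1r15a, encoding GADD34, which ends the block on translation, had 184, 139 and 109 CPM in CPN libraries against 30.3, 53.3 and 27.5 CPM in control libraries (edgeR adjusted p = 0.000574). The other higher members were again Atf4 and Ddit3.

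Control 2 stood apart from the other control libraries in this list, with the highest control value for 8 of the 9 genes. Atf4 had 1114, 1007 and 725 CPM in CPN libraries, against 202, 695 and 176 CPM in control libraries, so that control 2 came close to the lowest CPN value. For Asns, Chac1, Sesn2 and Gdf15 control 2 lay above the lowest CPN value. Asns, the asparagine synthetase gene, had 330, 202 and 256 CPM in CPN libraries, against 33.2, 203 and 40.7 CPM in control libraries. Chac1, a glutathione-degrading enzyme gene, had 28.7, 36.7 and 48.6 CPM in CPN libraries, against 2.55, 50.3 and 3.04 CPM in control libraries, so that control 2 was above all of the CPN values. Ddit3 had 767, 808 and 634 CPM in CPN libraries, against 43.3, 300 and 59.5 CPM in control libraries. For Atf3 itself control 2 was also the highest control, and it stayed far below every CPN value. Without control 2, 8 of the 9 genes were higher, where all genes called higher were 1131, against 845 in the main fit. By limma-voom or with no filter 7 were higher (all genes: 936 and 1046), and with the replicate number as a block 6 (748). By DESeq2 3 were higher (1052), as with any other single library left out (between 525 and 645). Without both control 3 and CPN 1, 2 were higher (273). Ddit3 shares exonic sequence with Mars, Cebpb with Tmem189 and Ppp1r15a with Tulp2, all on the opposite strand and all higher in CPN cells, so part of these counts cannot be told apart between the partners.

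**Figure D5:**
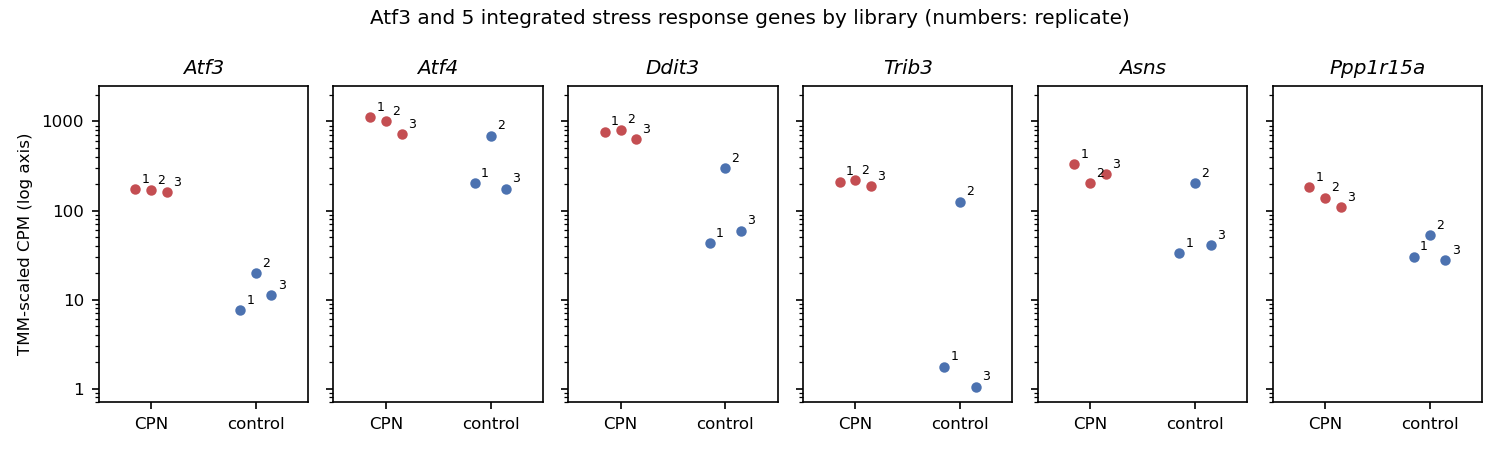
TMM-scaled CPM (vertical log axis) of Atf3 and of 5 genes of the integrated stress response in each CPN and control library, with the replicate number beside each point. Control 2 is above the other control libraries in all 6 panels, and for Atf3 it has 19.8 CPM where the CPN libraries have at least 161.

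The MAP kinase route phosphorylates JUN and FOS proteins and induces their genes. Of its 20 genes, 19 were tested, 1 was lower and none higher, where 14.0% of all tested genes were called in either direction, with a median log2 fold change of -0.11. Map2k3, a kinase that activates p38, was that gene, with 133, 101 and 140 CPM in CPN libraries against 286, 160 and 239 CPM in control libraries (log2 fold change -0.88 ± 0.22 SE, edgeR adjusted p = 0.0196). Its call ended without CPN 1, CPN 2, control 1 or control 3 (edgeR adjusted p between 0.0539 and 0.113), with log2 fold changes of -0.93, -0.73, -0.68 and -0.84 in that order. Mapk14, encoding p38α, had 30.5, 38.4 and 38.2 CPM in CPN libraries against 55.7, 62.5 and 53.2 CPM in control libraries and did not pass (edgeR adjusted p = 0.0606). It passed with library totals alone (0.0281) and with DESeq2 (0.0473). Map2k6 was not tested, and 1 other gene of the route was higher without control 1.

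Of 6 genes for proteins that govern the turnover or activity of AP-1 proteins, none passed edgeR's quasi-likelihood test. Among all tested genes 14.0% were called in either direction. Of the 6, 0 had an unadjusted p under 0.05. The smallest p belonged to Itch, a ubiquitin ligase of JUN proteins (log2 fold change 0.73, edgeR adjusted p = 0.269).

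Other immediate early genes, which respond to growth factor and stress signals alongside Fos and Jun, were also split. Higher were 3 of 12 and lower 1, beside 7.62% and 6.39% of all tested genes. Egr2, a zinc finger factor, had 4.68, 1.57 and 2.36 CPM in CPN libraries, against 32.6, 36.4 and 31.9 CPM in control libraries (log2 fold change -3.54 ± 0.43 SE, edgeR adjusted p = 0.000158). Ier3, a stress and NF-kB target, had 287, 335 and 223 CPM in CPN libraries, against 38.6, 73.6 and 47.9 CPM in control libraries (log2 fold change 2.40 ± 0.25 SE, edgeR adjusted p = 5.02e-05). The other higher genes were Zfp36, which destabilises cytokine mRNAs, and Dusp1, a MAP kinase phosphatase. Of the 12, 1 was higher when control 3 and CPN 1 were both left out.

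Genes that AP-1 and NFATc1 switch on in osteoclasts were lower for 7 and higher for 1 of 8 tested. Among all tested genes 6.39% were lower and 7.62% higher. The median log2 fold change of the list was -2.0. Atp6v0d2, a proton pump subunit, had 115, 89.1 and 140 CPM in CPN libraries, against 606, 633 and 543 CPM in control libraries. Ocstamp, needed for fusion of precursors, had 7.32, 4.72 and 6.95 CPM in CPN libraries, against 92.5, 42.9 and 71.9 CPM in control libraries. Both moved in the direction of Fos and Fosl2, and the gene that rose was Mmp9. Calcr and Itgb3 were too low to test.

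Of 6 inflammatory genes that ATF3 is known to repress in macrophages, Ccl4 was higher, and Il6 was counted in CPN libraries and in no control library. Ccl4, a chemokine gene, had 1009, 477 and 393 CPM in CPN libraries against 49.8, 45.0 and 55.4 CPM in control libraries (log2 fold change 3.65 ± 0.32 SE, edgeR adjusted p = 1.66e-05). Il6, encoding the cytokine interleukin-6, had 8.76, 1.44 and 5.58 CPM in CPN libraries, from 129 counts, and 0 in all control libraries. It was called higher (edgeR adjusted p = 0.00793). Its mean CPN level was 15.7-fold above a floor of 3 counts per control library, which is a description and not a lower limit. The call of Il6 ended without CPN 1 (0.0667). Il6 reached the count filter through the CPN libraries alone, so its test could not have found it lower. Il12b had 16 counts in CPN libraries and 0 in control libraries, Ifnb1 had 1 and 0, and neither was tested. Ch25h and Cxcl1 were at 0 in every library.

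Of 11 remodelling and growth genes known for AP-1 sites, 5 of 9 tested were higher and 1 lower. Among all tested genes 7.62% were higher and 6.39% lower. The median log2 fold change of the list was 1.31, the value of Timp1, which did not pass (edgeR adjusted p = 0.653). Timp1 had 32, 10 and 13 counts in CPN libraries against 27, 0 and 0 in control libraries. Its control counts alone did not reach the count filter, so it was tested only because of its CPN counts. Ptgs2, encoding the inducible cyclooxygenase, had 78.8, 77.8 and 55.5 CPM in CPN libraries, against 4.12, 1.68 and 0 CPM in control libraries (log2 fold change 5.14 ± 0.66 SE, edgeR adjusted p = 0.00024). The log2 fold change of Ptgs2 was 6.38 without control 1, 6.42 by limma-voom and 4.50 without both control 3 and CPN 1. With 0 in control 3, its control libraries alone did not reach the count filter, so Ptgs2 was tested only because of its CPN counts. Spp1, encoding osteopontin, had 3127, 5648 and 3926 CPM in CPN libraries, against 496, 731 and 524 CPM in control libraries. The lower gene was Plau, the urokinase gene, whose receptor gene Plaur was among the higher ones with Hmox1 and Vegfa. Without CPN 1, CPN 2 or control 3 none of these genes was lower, and without control 2 or with no filter there were 2.

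The genes whose levels ran most closely with Atf3 over the 6 libraries, among 10437 compared, were Basp1 and the C-type lectin receptor genes Clec4e and Clec4d. Their log2 CPM, each centred on its mean, differed from that of Atf3 by a root mean square of 0.17, 0.25 and 0.30. Like Atf3, they had their highest control value in control 2: Basp1 had 298, 268 and 268 CPM in CPN libraries, against 9.42, 34.1 and 16.2 CPM in control libraries. Closest to Fosl2 were the sialyltransferase gene St8sia4 (0.08), the histone gene Hist1h2ad (0.08), which has near-identical copies that can share reads, and Acp5 (0.10), the gene for tartrate-resistant acid phosphatase of osteoclasts. Acp5 had 338, 281 and 398 CPM in CPN libraries against 979, 1118 and 966 CPM in control libraries. All of these differ between the groups, so closeness over these 6 libraries is mostly closeness of that difference, and it is given as a description.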

How the data were processed

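Messenger RNA of 3 CPN and 3 control samples was measured by QuantSeq. The authors deposited a file of raw whole-number counts for each sample. Bowtie2, bedtools and mm10 are named in the submitters' processing notes, with no role stated. Versions, annotation, strand use and multimapped reads: not given in the sources used here. Of 23282 entries, 79 shared a symbol with another and were kept apart.

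In R 4.3.3 with edgeR 4.0.16, genes were filtered by filterByExpr (minimum count 10, total 15) and scaled by TMM, and CPN was compared with control by the quasi-likelihood test over 11092 genes, Benjamini-Hochberg adjusted, at 0.05. The common biological coefficient of variation was 0.355. An SE is the log2 fold change over the square root of F. The 95% intervals of log2 fold changes are built from that SE and so include variation between libraries. The exact interval of count totals and the floors of counts cover counting error only. Coordinates are from GENCODE M21 (GRCm38).

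The members and the 8 gene lists were chosen with earlier results of these data known. In each list the 2 tested genes with the smallest p were described, except 1 gene that is not reported here, and other called genes, the untested genes and Ccdc85b, Prdx2, Mars, Tmem189 and Tulp2 were named after their values were seen. Alternatives were other size factors, library totals, DESeq2 1.42.0, limma-voom (limma 3.58.1), other filters, removal of the ribosomal RNA entry Rn45s, the replicate number as a block and left-out libraries. The code was tested on simulated counts.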

Additional observations from a re-analysis of the deposited data

How the results depend on the processing

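Over 15 alternative fits, 109 of 120 values of the 8 tested members kept their direction and side of the threshold. Atf3 and Fosl2 passed in every fit. Leaving out control 3 and CPN 1 together, the libraries with the fewest zeros, gave 273 genes higher and 173 lower over all genes, 1 member higher and 1 lower, Fos at -0.76, Fosl1 at 1.45 and Jund at -0.13 on the log2 scale. The cause was not tested, though fewer samples were used.

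With 1 library left out, the log2 fold changes lay between -1.52 and -0.94 for Fos, 1.27 and 2.01 for Fosl1, -1.73 and -1.54 for Fosl2, 0.54 and 0.89 for Jun, -0.42 and -0.04 for Junb, -0.08 and 0.25 for Jund, 3.44 and 4.18 for Atf3, and 0.28 and 0.52 for Jdp2. The direction of Jund turned without CPN 1 (-0.077). Over all genes between 525 and 1131 were higher and between 359 and 823 lower, with the fewest in both directions without control 3 and the most without control 2. Between 1 and 3 members were higher, the third being Batf without control 2, and 1 or 2 were lower. Batf entered that fit through its CPN counts alone. The differences in log2 ratio lay between -0.63 and -0.14 for Fosl2 to Fos, -0.37 and -0.25 for Junb to Jund, and 3.20 and 3.73 for Atf3 to Jdp2.

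Same-numbered CPN and control libraries did not deviate together (r = -0.05, 0.02 and 0.03 across genes). An effect shared by few genes would not show in this r, and the labels give only numbers. Whether these libraries were paired is therefore not known. With the replicate number as a block, 748 genes were higher and 578 lower, and no member's call changed. For Batf and Fosb a few counts decide the value. Zeros among low genes did not follow depth: control 1, with 9713938 counts, had 36.9% and control 3, with 7957228, had 23.8%.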
